A study of Mus musculus with 12 samples.

Results

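CpG1668 and doxycycline were tested in a full 2 by 2 layout: neither agent (PBS), CpG1668 alone, doxycycline alone, and both together. All 12 libraries of the series entered, with 3 in each of the 4 groups. The cells were CMM-tetON-shStat3 leukaemia cells, a mouse acute myeloid leukaemia with inv(16), marked by GFP and mCherry and injected intravenously into NSG mice. Treatment began when about 1% of blood cells were leukaemic. Spleens were taken 1 day after the last treatment, and the GFP+ mCherry+ cells were sorted for RNA sequencing. The labels give the schedule in one place as 6 daily treatments and in another as 3 treatments every other day. Of 33531 genes in the deposited RPKM values (reads per gene, scaled to gene length and library depth), 12167 had a mean of at least 1 over the 12 libraries and were tested.

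All 4 groups carried the inducible hairpin, and the PBS and CpG1668 groups carried it without its inducer. No group received doxycycline without the hairpin, so the drug and the hairpin against Stat3 cannot be told apart. NSG hosts lack B, T and NK cells but keep granulocytes and macrophages. Whether a group's 3 libraries stand for 3 mice is not given in the labels, and the p-values measure only the spread between these libraries.

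CpG1668 is a short synthetic DNA with unmethylated CpG motifs that is recognised in endosomes by Toll-like receptor 9 (TLR9), which signals through MyD88 to NF-kappaB and interferon regulatory factors. STAT3 is a transcription factor switched on by cytokine receptors, and in myeloid leukaemia it is known for supporting survival and restraining immune activation. IRF8 is a transcription factor that directs progenitors toward monocytes and dendritic cells. In inv(16) leukaemia the fusion CBFB-MYH11 disturbs core-binding factor and blocks myeloid maturation. The layout asks whether the response to both agents equals what the responses to each one alone add up to. That question depends on the scale. On log2(RPKM + 1), additive means that the fold changes of RPKM + 1 multiply. For genes near or under 1 RPKM with PBS these folds are smaller than the plain folds of RPKM, so the multiplied expectation is lower too. Both products are given below where they differ. On plain RPKM, additive means that the gained or lost amounts sum. The interaction used here is (CpG1668 plus doxycycline minus CpG1668) minus (doxycycline minus PBS). It is positive where the combination exceeds the expectation.

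Irf8 is shown first for its role in the monocyte lineage, and whether its level depends on STAT3 was not tested. The 250 bases before its RefSeq start (GRCm38.p6, chr8:120736108-120736357, plus strand) hold 2 matches to TTCNNNGAA, the core of STAT binding sites, at 171 and 153 bases before the start. Capitals mark the matches, and the motif is its own reverse complement. RefSeq lists 2 starts for Irf8, and this is the first listed window that held a match.
Irf8: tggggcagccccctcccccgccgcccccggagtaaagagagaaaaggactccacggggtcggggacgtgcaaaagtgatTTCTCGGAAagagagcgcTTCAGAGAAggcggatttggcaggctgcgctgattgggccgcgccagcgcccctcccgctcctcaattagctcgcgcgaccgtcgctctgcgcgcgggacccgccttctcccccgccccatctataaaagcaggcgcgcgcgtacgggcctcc
Such a match stood in 2306 of 32851 mouse promoter windows of that length (7.02%). Among listed genes of the STAT3 pathway and its targets, 3 of 29 windows held one, in 2 of the 23 genes with a window. The match is a description of letters and not evidence of binding. Irf8 was chosen for its role, since the search planned for genes with a called interaction had no gene to run on.

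Irf8 measured 0.308, 0.464 and 0.355 RPKM with PBS, and 1.60, 1.67 and 1.56 with CpG1668. It measured 1.09, 1.21 and 1.20 RPKM with doxycycline and 2.61, 2.48 and 3.60 with both. The 4 groups did not overlap, and each agent added to the other. Summing the gains gave an expected 2.40 RPKM, multiplying the folds of RPKM + 1 gave 3.11, and multiplying the plain folds gave 4.99. The observed mean was 2.89, above the sum and below both products. The interaction of Irf8 was -0.09 on log2 (95% interval -0.39 to 0.21, limma adjusted p = 0.978) and 0.494 RPKM (-0.243 to 1.23). At these low levels the log2 value was -0.63 with 0.1 added in place of 1, and after quantile normalization its sign turned, to 0.18.

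Stat3, the target of the hairpin, checks the labels. It measured 17.9, 16.8 and 16.9 RPKM with PBS, 17.6, 18.5 and 18.4 with CpG1668, 18.8, 19.1 and 18.8 with doxycycline, and 19.7, 19.4 and 19.0 with both. Stat3 was not lower in any doxycycline library than in the PBS libraries. Averaged over CpG1668, doxycycline raised it by 0.11 on log2 (limma adjusted p = 0.0131), and its interaction was -0.04 (-0.15 to 0.06). The libraries labelled doxycycline are therefore called so from their labels alone.

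Depth was alike across groups. Where low values fell on whole reads, they put the libraries at 30450000 to 35030000 reads, and 3 reads on a gene of 1 kb then equal 0.0856 to 0.0985 RPKM. Kit, a receptor of progenitors, lay between 15.8 and 19.7 RPKM in all 12 libraries and Gata1, the erythroid and mast cell transcription factor, between 85.6 and 107. Ptprc, which encodes the leucocyte antigen CD45, was low, at 0.429 to 0.742 RPKM with PBS. It measured 1.92 to 2.19 with CpG1668, 1.44 to 2.07 with doxycycline and 3.25 to 4.60 with both. Mpo, which marks myeloid blasts, was at 2.14 to 2.41 RPKM with PBS, beside Hba-a1 at 2186 to 2944, so in cells labelled as a myeloid leukaemia an erythroid gene stood far above this myeloid marker. Mpo does not stand for all granule genes, since the 10 tested primary granule genes summed to 322 to 341 RPKM with PBS. In sorted bulk cells, a change in the number of cells of a type and a change of RNA per cell cannot be told apart.

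No gene passed the interaction test. On log2, 0 of 12167 genes (0%) had a limma adjusted p under 0.05, and on plain RPKM it was also 0 (0%). At an unadjusted p under 0.05 there were 812 genes on log2 (6.67%), 454 with a positive and 358 with a negative interaction. On RPKM there were 827 (6.80%), 543 positive and 284 negative. The smallest adjusted p was 0.316 on log2 and 0.196 on RPKM. The square root of RPKM also gave 0 calls in either direction.

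The precision of the layout sets what this count can say. The 95% interval of the log2 interaction reached 0.18 to either side of the estimate for the median gene, a factor of 1.13, but 0.51 at the 95th percentile. It lay wholly within 1.5-fold for 11092 genes (91.2%). These genes are called additive below, and a gene whose interval crossed that bound is called undetermined, since a missed threshold alone does not show additivity.

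The genes that responded were taken from CpG1668 plus doxycycline against PBS, a contrast whose error is uncorrelated with that of the interaction when the groups vary alike. In that contrast 1890 genes (15.5%) were called by limma at an adjusted p under 0.05, 1111 higher (9.13%) and 779 lower (6.40%). That split depended on scaling: it was 1003 higher and 1059 lower with median-of-ratios scaling and 984 and 1356 with quantile normalization. Of the 1890 genes, 1630 (86.2%) were additive within 1.5-fold and 260 were undetermined. The undetermined genes were the large responders. Their median change was 1.41 on log2 against 0.25 for the additive genes. Their interval reached 0.51 to either side against 0.17. The 1.5-fold bound is 0.58 on log2, wider than the median change of the additive genes. At such small responses, agents that did not add to each other could also stay within it. For small responders, additive therefore says little. The plot of the interaction against the combined response shows both groups.

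**Figure D1:**
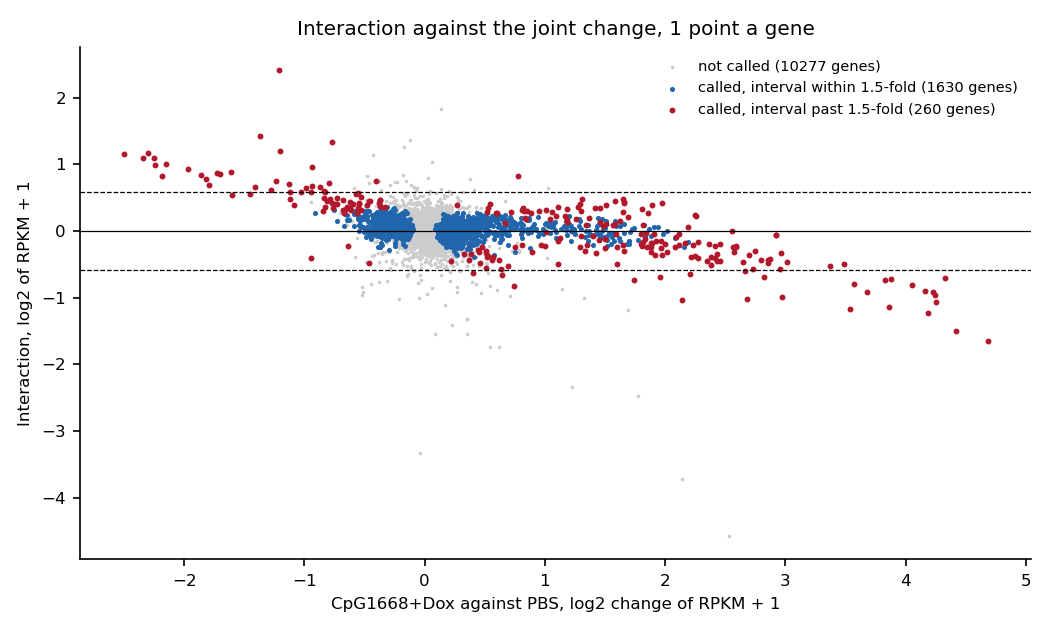
Interaction on log2(RPKM + 1) of each tested gene (vertical) against its log2 difference between CpG1668 plus doxycycline and PBS (horizontal). Genes of small response lie close to 0, and the largest risers, such as Mpo at -1.66, spread below it, while 38 of the 40 genes that fell at least 2-fold lie above it.

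Each agent also had its own effect when averaged over the other. CpG1668 was called for 587 genes higher (4.82%) and 581 lower (4.78%), and doxycycline for 936 higher (7.69%) and 358 lower (2.94%). Median-of-ratios scaling gave 596 and 646 for CpG1668 and 774 and 523 for doxycycline. Quantile normalization gave 589 and 706, and 708 and 659. No gene had an effect of one agent that was called in opposite directions without and with the other agent, by limma at an adjusted p under 0.05. At an unadjusted p under 0.05 in both, 30 genes did so for doxycycline and 33 for CpG1668.

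The genes that rose most with both agents showed how much the answer turned on the scale. There were 284 called genes at least 2-fold higher than PBS, and 282 of them (99.3%) had a higher mean with both agents than with either one. On plain RPKM the interaction was above 0 in 268 of the 284 (94.4%), beside 55.4% of all genes tested, with a median of 0.845 RPKM. On log2 it was below 0 in 162 (57.0%), beside 46.0% of all genes, with a median of -0.04. The observed mean was 1.248 times the summed expectation in the median gene, 0.976 times the product of RPKM + 1 and 0.726 times the product of plain folds. With PBS, 184 of the 284 genes averaged under 1 RPKM. With RPKM + 1, the combination fell between sum and product in 139 genes, above both in 129 and below both in 16. With plain folds it fell between them in 210, above both in 58 and below both in 16. These are counts over genes that share libraries, and none of the genes passed the interaction test by itself. The 284 were also chosen for a high mean with both agents. That choice by itself favours a mean above either agent alone. On RPKM, where the spread grows with the level, it also favours an interaction above 0.

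The log2 sign of these risers was not stable, while the RPKM sign was. With a pseudocount of 0.1, 222 of 283 genes were below 0 on log2, with a median of -0.39, and after quantile normalization 99 of 257, with a median of 0.09. Without library 2 of CpG1668 plus doxycycline it was 118 of 282. On RPKM the count above 0 ran from 226 of 260 to 283 of 300 when each library was left out in turn. Of the 123 risers reaching 5 RPKM in their highest group, 96 were below 0 on log2, with a median of -0.22, and 117 were above 0 on RPKM.

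**Figure D2:**
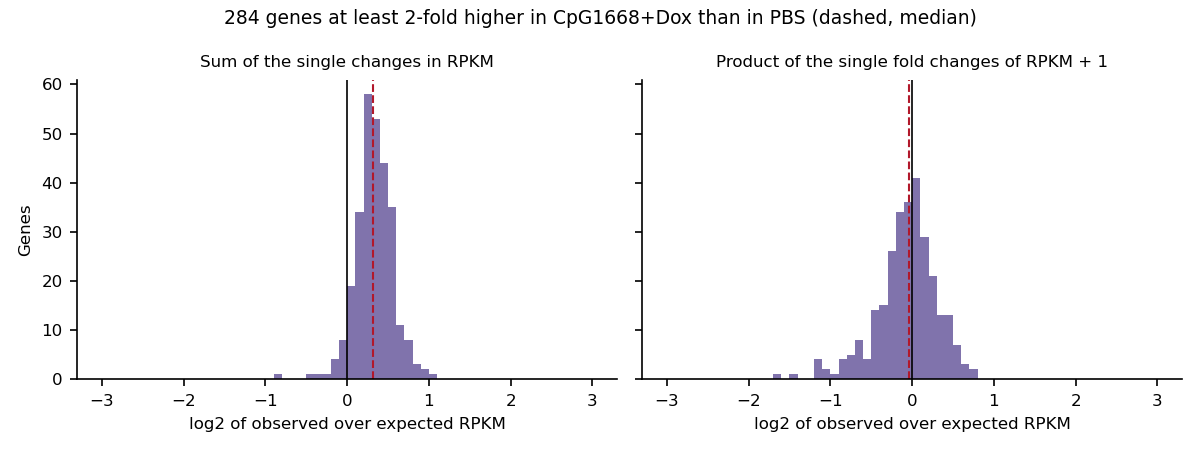
Observed mean RPKM with CpG1668 plus doxycycline divided by the mean expected from each agent alone, for the genes called and at least 2-fold higher than PBS, as log2 ratios (horizontal) against the number of genes (vertical), with the summed and the multiplied expectation in separate panels. The median ratio is 1.248 to the sum and 0.976 to the product of RPKM + 1.

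Among primary granule genes, 4 with large rises lay above the sum and below the product. Mpo, the myeloperoxidase of neutrophil and monocyte granules, measured 2.14, 2.41 and 2.23 RPKM with PBS and 52.9, 43.2 and 47.2 with CpG1668. It measured 13.2, 14.5 and 24.5 RPKM with doxycycline and 80.1, 58.0 and 123 with both. Every group lay apart from the others, and library 3 was the highest of both groups with doxycycline. The sum expected was 62.9 RPKM, the product of RPKM + 1 was 264, the product of plain folds 367, and the observed mean 86.9. The interaction was -1.66 on log2 (-2.43 to -0.89, limma adjusted p = 0.419) and 24.02 RPKM (-15.0 to 63.1, adjusted p = 0.856).

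Ctsg, Elane and Prtn3, the serine proteases of the same granules, followed Mpo. Ctsg measured 1.07, 1.06 and 1.35 RPKM with PBS, 28.3, 26.6 and 27.8 with CpG1668, 6.05, 8.10 and 14.0 with doxycycline, and 45.5, 31.6 and 63.5 with both. Its interaction was -1.51 on log2 (-2.31 to -0.70, adjusted p = 0.465). Elane had -1.07 (-2.03 to -0.11) and Prtn3 -1.23 (-2.03 to -0.43), and neither passed. For Elane, 43.2 RPKM was observed against a sum of 26.2, a product of 84.2 with RPKM + 1 and one of 139.5 with plain folds. Of 10 tested granule genes, 7 were called higher with both agents (9.13% of all genes). CpG1668 averaged over doxycycline raised 6 (4.82%) and lowered 1 (4.78%). The 10 genes summed to 322 to 341 RPKM with PBS, 424 to 443 with CpG1668, 365 to 427 with doxycycline and 475 to 671 with both. With PBS most of that sum came from members other than Mpo, Ctsg, Elane and Prtn3. A log2 interaction below 0 was seen in 8 (46.0% of all genes) and an RPKM interaction above 0 in 8 (55.4%). Their median log2 interaction was -0.20, beside 0.01 over all genes, and it ran from -0.46 without library 3 of CpG1668 plus doxycycline to -0.07 without library 3 of doxycycline. The list held 4 additive and 6 undetermined genes (91.2% of all genes were additive).

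**Figure D3:**
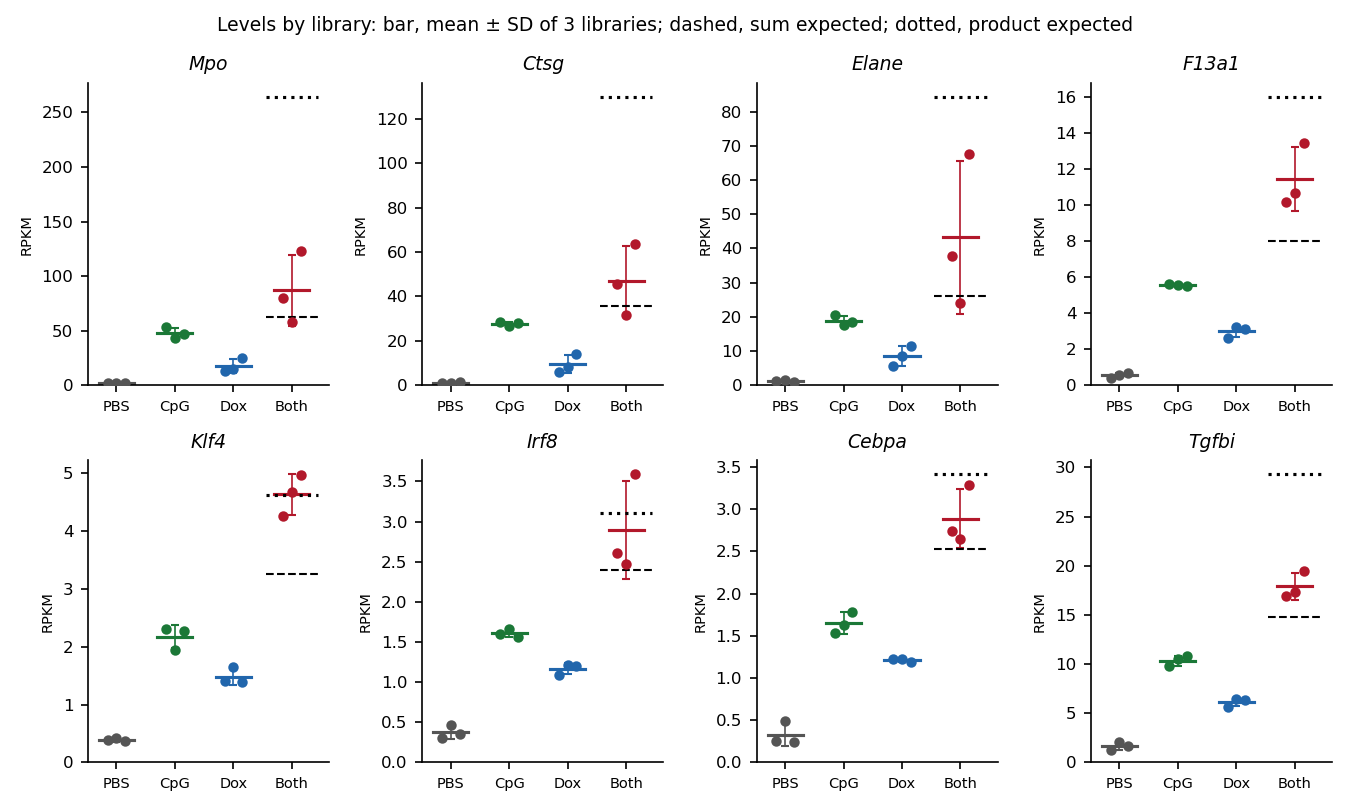
RPKM of genes that rose, by library (points) and group, with the group means and the levels expected from the sum of the single effects and from their product on RPKM + 1. Mpo with both agents averaged 86.9 RPKM, between the summed 62.9 and the multiplied 264.

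Monocyte and macrophage genes rose with each agent. Of 25 tested, CpG1668 averaged over doxycycline raised 25 (4.82% of all genes) and doxycycline averaged over CpG1668 raised 24 (7.69%). Their summed level was 90.1 to 124 RPKM with PBS, 261 to 293 with CpG1668, 201 to 304 with doxycycline and 491 to 668 with both. On RPKM the interaction was above 0 in all 25 (55.4% of all genes). On log2 it was below 0 in 17 (46.0% of all genes). The log2 median was -0.15, and it ran from -0.26 to -0.07 over the libraries left out in turn. Of the 25 genes, 12 were additive within 1.5-fold and 13 undetermined (91.2% of all genes were additive).

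F13a1, the transglutaminase of monocytes, is one of the most precise of them. It measured 0.377, 0.574 and 0.671 RPKM with PBS, 5.60, 5.57 and 5.53 with CpG1668, 2.65, 3.21 and 3.10 with doxycycline and 10.2, 10.7 and 13.5 with both. The observed 11.4 RPKM lay above a sum of 8.01 and below a product of 16.0 with RPKM + 1 and of 30.8 with plain folds. The interaction was -0.46 on log2 (-0.76 to -0.16) and 3.43 RPKM (1.30 to 5.57). Neither passed (adjusted p = 0.522 and 0.529), and the signs were opposite.

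Tgfbi, a matrix protein secreted by macrophages, had one of the 3 smallest p-values below 0 on log2. It measured 1.29, 2.12 and 1.65 RPKM with PBS, 9.79, 10.5 and 10.8 with CpG1668, 5.64, 6.41 and 6.33 with doxycycline and 16.9, 17.3 and 19.5 with both. The log2 interaction of Tgfbi was -0.68 (-0.98 to -0.39, adjusted p = 0.419), while the RPKM interaction was 3.11 (1.18 to 5.04, adjusted p = 0.527). Csf1r, the receptor for macrophage colony-stimulating factor, had -0.26 (-0.74 to 0.22). It measured 1.20 to 2.19 RPKM with PBS and 7.54 to 10.3 with both.

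Several transcription factors of the lineage had log2 values near 0, which depended on the added 1. Klf4, a driver of monocyte differentiation, measured 0.379, 0.429 and 0.370 RPKM with PBS, 2.30, 1.94 and 2.27 with CpG1668, 1.41, 1.64 and 1.38 with doxycycline and 4.27, 4.67 and 4.97 with both. For Klf4 the product of RPKM + 1 was 4.63, the product of plain folds 8.17 and the observed mean 4.64. Its log2 interaction was 0.00 (-0.21 to 0.21), and -0.61 with 0.1 added in place of 1. The sum expected was 3.26, and the RPKM interaction of 1.38 (0.850 to 1.91) had one of the 3 smallest p-values above 0 on that scale, without passing (adjusted p = 0.305). Its log2 sign changed in 8 of the alternatives.

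Cebpa, which starts granulocyte and monocyte differentiation, had -0.19 (-0.45 to 0.07) and Cebpb, its partner in later stages and in emergency granulopoiesis, -0.20 (-0.55 to 0.15). Cebpa measured 0.247 to 0.485 RPKM with PBS and 2.64 to 3.28 with both. Cebpb measured 2.10 to 2.53 and 8.57 to 10.6. With 0.1 added, Cebpa had -0.89 and Cebpb -0.34, and after quantile normalization Cebpa turned to 0.08. Of 14 tested factors, each agent raised 10 when averaged over the other (4.82% of all genes for CpG1668, 7.69% for doxycycline). Of the 14, 8 were additive and 6 undetermined (91.2% of all genes were additive), and the median interaction was -0.01. That median was 0.04 after quantile normalization.

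Among genes reaching 5 RPKM in their highest group, without predicted gene models, the largest rises additive within 1.5-fold on log2 belonged to 4 genes. Pld4, an endosomal nuclease that degrades DNA ligands of TLR9, measured 0.910 to 1.35 RPKM with PBS, 4.47 to 5.42 with CpG1668, 2.62 to 3.92 with doxycycline and 8.30 to 9.76 with both. Its interaction was -0.16 (-0.52 to 0.20). Ifngr1, a chain of the interferon gamma receptor, had -0.18 (-0.51 to 0.15) and a combined rise of 2.17 on log2. Emb, a cell adhesion protein, had -0.24 (-0.53 to 0.05) and a rise of 2.16. Tnfrsf1b, the second receptor of tumour necrosis factor, had -0.04 (-0.44 to 0.36) and a rise of 1.99. All 4 had a positive RPKM interaction. With 0.1 added in place of 1, the log2 estimates were -0.48 for Pld4, -0.39 for Ifngr1, -0.70 for Emb and -0.44 for Tnfrsf1b, whose sign changed in 5 of the alternatives. The estimate of Emb was itself past the bound. For the others, an interval as wide as in the main fit would also cross it. That these 4 genes are additive therefore depends on the added 1.

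The subunits of the phagocyte NADPH oxidase, which makes superoxide, were higher with both agents than with PBS. Ncf1 measured 0.952 to 1.52 RPKM with PBS, 5.77 to 6.62 with CpG1668, 3.94 to 9.41 with doxycycline and 10.6 to 22.1 with both. Its interaction was -0.48 (-1.30 to 0.34). Of 6 tested subunits, all 6 were called higher with both agents (9.13% of all genes). Of the 6, 3 were additive and 3 undetermined (91.2% of all genes were additive). All 6 had an RPKM interaction above 0 (55.4% of all genes).

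Late neutrophil genes rose with both agents and varied widely between libraries. S100a8, a calcium-binding protein abundant in neutrophils, measured 25.1, 54.2 and 38.4 RPKM with PBS and 155, 148 and 190 with CpG1668. It measured 136, 315 and 614 RPKM with doxycycline and 730, 406 and 1087 with both. The doxycycline libraries of S100a8 overlapped both the CpG1668 libraries and those with both agents. Its interaction was -0.90 (-2.41 to 0.62) on log2 and 261 RPKM (-223 to 745). Ngp and Chil3, a granule protein and a secreted chitinase-like protein, had -0.92 (-2.34 to 0.51) and -0.71 (-1.75 to 0.33). Lyz2, the lysozyme of granulocytes and macrophages, had -0.92 (-1.74 to -0.10) and 87.9 RPKM (4.63 to 171).

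All 19 late neutrophil genes tested were undetermined, while 91.2% of all genes were additive. All 19 were called higher with both agents (9.13% of all genes). On RPKM all 19 interactions were above 0 (55.4% of all genes). On log2 17 were below 0 (46.0% of all genes), with a median of -0.56. That median was -0.98 without library 1 of doxycycline and -0.16 without library 3 of doxycycline, so single doxycycline libraries set its size. Their summed level was 128 to 258 RPKM with PBS, 766 to 988 with CpG1668, 683 to 2545 with doxycycline and 2021 to 5029 with both. Markers of other host cells moved less. The 13 splenic macrophage markers summed to 18.5 to 32.5 RPKM with PBS and 33.4 to 53.0 with both. Of the 9 that were tested, 1 was called higher with both agents (9.13% of all genes). The 12 T and NK cell markers summed to 8.54 to 11.1 and 13.5 to 15.8 RPKM, and none of the 12 was at 0 in every library. Only 1 of the 12 was tested, Gzmb, which is also on the list of basophil and mast cell genes. Gzmb averaged 9.57 RPKM with PBS and 13.8 with both agents, so it made up most of that sum. Whether host granulocytes in the sort had a part in the late neutrophil values was not tested.

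Genes that fell mostly stayed above the level that the single falls multiply to. Among the 40 called genes at least 2-fold lower with both agents than with PBS, the interaction was above 0 in 38 on log2, with a median of 0.69, and in 38 on RPKM. These genes were chosen for a high mean with PBS. On RPKM, where the spread grows with the level, that choice also favours an interaction above 0. The exceptions below 0 on log2 were Gm33370 and Mcpt1. Only 1 of the 40 was additive within 1.5-fold and 39 were undetermined. With single libraries left out, the count above 0 on log2 ran from 28 of 30 (without library 2 of PBS) to 43 of 45 (without library 1 of PBS), and after quantile normalization it was 50 of 59. Over all 779 called lower genes it was above 0 in 605 (77.7%), beside 54.0% of all genes tested, with a median of 0.07.

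Erythroid genes made up 9 of the 40. Hba-a1, an alpha globin, measured 2186, 2944 and 2412 RPKM with PBS, 814, 1232 and 1425 with CpG1668, 1147, 502 and 701 with doxycycline and 848, 470 and 646 with both. All treated libraries were below all PBS libraries, and the libraries with both agents overlapped those with doxycycline. Summing the 2 losses would give -573 RPKM, a level that cannot exist, and multiplying the folds gives 333 with RPKM + 1 and 361 with plain folds, against 655 observed. The interaction was 0.93 on log2 (-0.01 to 1.87, adjusted p = 0.749) and 1228 RPKM (457 to 1999, adjusted p = 0.529). Globin genes are near-identical pairs, whose reads the counting may have divided between copies.

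Epb42, a protein of the red cell membrane skeleton, gave 0.75 (0.15 to 1.34). It measured 3.38 to 5.99 RPKM with PBS, 1.62 to 2.05 with CpG1668, 0.836 to 1.97 with doxycycline and 0.975 to 1.41 with both. Alas2, the first enzyme of erythroid haem synthesis, averaged 78.7 RPKM with PBS, 34.8 with CpG1668, 17.2 with doxycycline and 15.7 with both. Fech, the last enzyme of haem synthesis, had 0.32 (0.05 to 0.58) and a combined change of -0.76. Hbq1b, a theta globin, had 0.27 (0.02 to 0.51) and -0.92. Fech had one of the 4 largest falls additive within 1.5-fold among genes reaching 5 RPKM in their highest group, without predicted gene models. Gata1 was additive, with 0.03 (-0.11 to 0.18).

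Of 18 tested erythroid genes, 16 were called lower with both agents (6.40% of all genes). A log2 interaction above 0 was seen in 14 (54.0%), and 9 were additive (91.2%). The median interaction of the 18 was 0.29, and it ran from 0.16 to 0.37 over the libraries left out in turn. CpG1668 averaged over doxycycline lowered 9 (4.78% of all genes). Doxycycline averaged over CpG1668 lowered 10 (2.94%), or 14 with either scaling alternative.

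**Figure D4:**
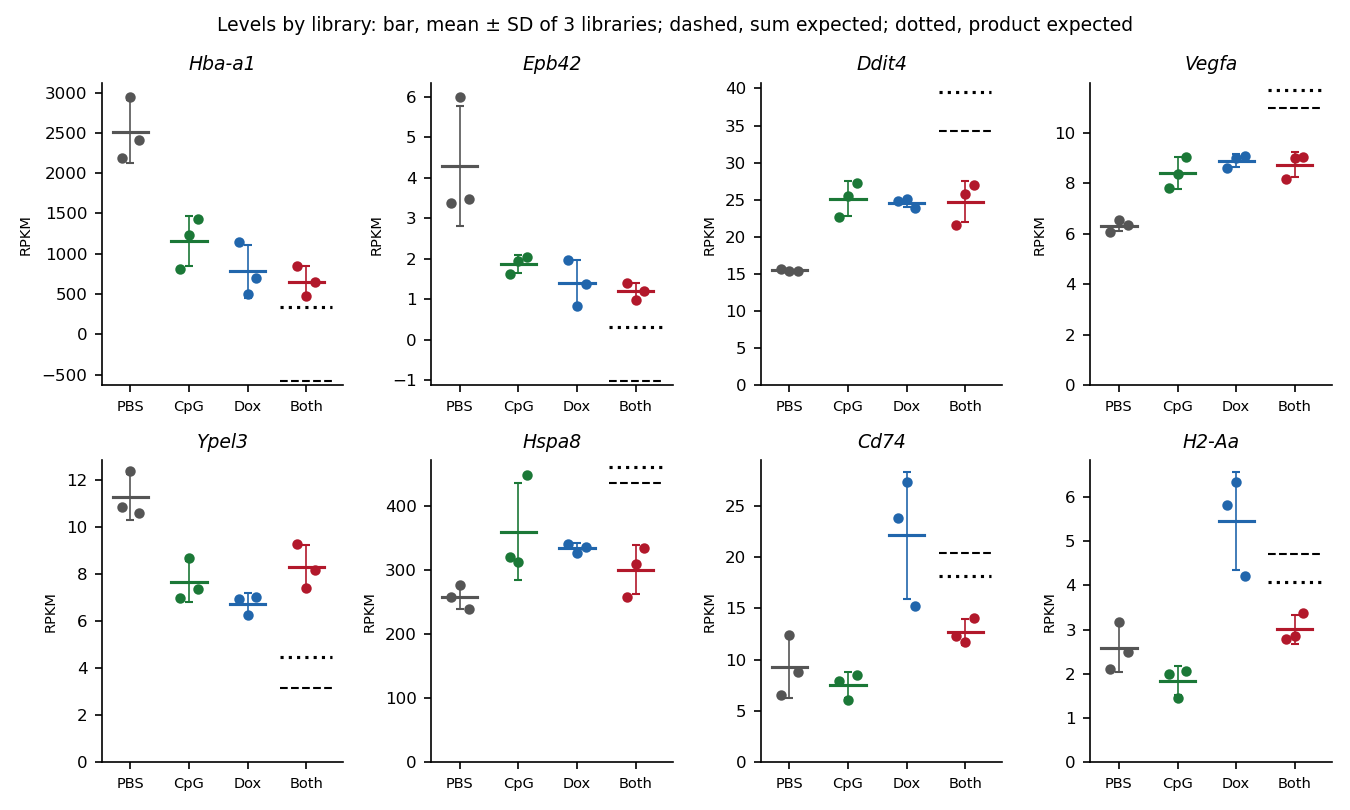
RPKM of genes that fell or levelled off, by library (points) and group, with group means and the expected sum and product. The summed expectation of Hba-a1 lies below 0 at -573 RPKM, and Ddit4 is alike in all 3 treated groups.

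Some genes of small p-value reached one level under any treatment. Ddit4, an inhibitor of mTORC1 induced by stress and glucocorticoids, measured 15.6, 15.4 and 15.4 RPKM with PBS and 22.7, 25.5 and 27.3 with CpG1668. It measured 24.8, 25.1 and 23.9 RPKM with doxycycline and 21.6, 25.8 and 26.9 with both. The treated groups overlapped one another, and all lay above PBS. The combination averaged 24.8 RPKM against an expected sum of 34.3 and product of 39.5 with RPKM + 1. The interaction was -0.66 (-0.90 to -0.42), with the smallest p-value below 0 on log2, and it did not pass (limma adjusted p = 0.316).

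Vegfa, the vascular endothelial growth factor, had the same shape. It measured 6.08, 6.53 and 6.34 RPKM with PBS, 7.79, 8.38 and 9.04 with CpG1668, 8.58, 8.99 and 9.07 with doxycycline and 8.14 to 9.05 with both. Its interaction was -0.38 (-0.55 to -0.22, adjusted p = 0.419), inside the 1.5-fold bound. Sesn2, a stress-induced regulator of mTORC1, had -0.34 (-0.62 to -0.06, adjusted p = 0.670). The interaction of Atf4, the transcription factor of the integrated stress response, was -0.26 (-0.55 to 0.03). Of 16 tested genes of that response, 11 were additive (91.2% of all genes). Doxycycline averaged over CpG1668 raised 7 (7.69% of all genes) and lowered 0 (2.94%). The number raised ran from 3 to 11 over the libraries left out in turn.

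In the other direction, Ypel3, a small protein linked to growth arrest, fell with each agent and not further with both. It measured 10.8, 12.4 and 10.6 RPKM with PBS, 6.99, 8.67 and 7.38 with CpG1668, 6.96, 6.25 and 7.03 with doxycycline and 9.27, 7.39 and 8.18 with both. The libraries with both agents overlapped those with CpG1668 and lay above those with doxycycline. The interaction was 0.76 (0.48 to 1.03, adjusted p = 0.316) on log2 and 5.12 RPKM (3.09 to 7.14, adjusted p = 0.305). Tmem131l and Tor1aip1, a transmembrane protein and a protein of the inner nuclear membrane, were the next above 0, with 0.30 (0.16 to 0.44) and 0.19 (0.10 to 0.28). Both lay inside the 1.5-fold bound, and neither passed. On RPKM the smallest p-values below 0 belonged to Zcchc10 at -3.04, Fam174b at -5.21 and Ddit4 at -9.52.

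Interferon-inducible transmembrane genes were among the low log2 values. Ifitm3, which blocks virus entry, measured 2.58, 6.27 and 4.13 RPKM with PBS, 19.7, 21.4 and 20.2 with CpG1668, 15.2, 17.1 and 22.5 with doxycycline and 37.3, 36.7 and 43.6 with both. Its observed 39.2 RPKM lay near the sum of 34.4 and below the product of 78.7 with RPKM + 1. The interaction was -0.99 on log2 (-1.63 to -0.35, adjusted p = 0.522) and 4.85 RPKM (-1.84 to 11.5). Ifi27l2a had -0.69 (-1.02 to -0.36, adjusted p = 0.419) on log2 and -0.393 RPKM (-2.06 to 1.28), and Ifitm1 -1.02 (-1.67 to -0.36) and -0.190 RPKM (-3.36 to 2.98). These 3 genes were near the sum on RPKM. Over 24 tested interferon-stimulated genes the median log2 interaction was -0.02, and 16 were additive (91.2% of all genes). Both agents together raised 7 (9.13% of all genes) and lowered 5 (6.40%). Isg15 and Rsad2, 2 of the classical members, were among the 40 genes that fell at least 2-fold.

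Among class II antigen presentation genes the agents had opposite effects on some of the same genes. Of 8 tested genes, doxycycline averaged over CpG1668 raised 7 (7.69% of all genes). CpG1668 averaged over doxycycline raised 3 (4.82%) and lowered 3 (4.78%). H2-Ab1, a class II beta chain, measured 1.63, 3.13 and 2.28 RPKM with PBS, 1.36, 1.60 and 1.48 with CpG1668, 6.14, 6.84 and 3.99 with doxycycline and 2.76, 2.45 and 2.85 with both. The doxycycline libraries lay above all others, and those with both agents overlapped PBS. CpG1668 averaged over doxycycline changed H2-Ab1 by -0.62 on log2 (adjusted p = 0.00798), and doxycycline averaged over CpG1668 by 0.78 (adjusted p = 0.00191). The interaction was -0.42 (-0.95 to 0.11) and did not pass (adjusted p = 0.842).

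H2-Aa, the alpha chain, had main effects of -0.50 and 0.67 and an interaction of -0.34 (-0.78 to 0.09). Cd74, the invariant chain, measured 6.52 to 12.4 RPKM with PBS, 6.13 to 8.53 with CpG1668, 15.2 to 27.3 with doxycycline and 11.7 to 14.1 with both. Doxycycline averaged over CpG1668 raised Cd74 by 0.93 (adjusted p = 0.00322), and the effect of CpG1668 was -0.48 (adjusted p = 0.0856). Dendritic cell markers, which mark cells rich in class II, summed to 29.3 to 36.6 RPKM over the 12 libraries, and 1 of 10 reached the level for testing. That gene, Bst2, averaged 29.3 RPKM with PBS, 31.4 with CpG1668, 32.1 with doxycycline and 32.6 with both. The sum was therefore mostly the level of Bst2, and the other markers were low. The part of dendritic cells in the class II values was not tested. Of 17 class I genes, 16 were additive, a share close to the 91.2% of all genes.

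Immediate-early and heat shock genes varied widely between libraries of one group. Hspa1b, an inducible HSP70, measured 1.39, 5.43 and 4.93 RPKM with PBS, 18.8, 35.2 and 188 with CpG1668, 167, 13.8 and 63.8 with doxycycline and 14.6, 107 and 9.50 with both. Jun, a subunit of AP-1, measured 9.25, 9.48 and 9.02 RPKM with PBS, 34.2, 43.0 and 89.2 with CpG1668, 85.4, 15.7 and 37.9 with doxycycline and 38.3, 75.0 and 13.4 with both. The same library was highest in each group for both genes, and also for Nfkbia, the inhibitor of NF-kappaB: library 2 with PBS, 3 with CpG1668, 1 with doxycycline and 2 with both.

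The log2 interaction was -4.57 (-7.92 to -1.23) for Hspa1b, -2.47 (-4.43 to -0.51) for Jun and -0.86 (-2.16 to 0.43) for Nfkbia, and none passed. With each library left out in turn, Hspa1b stayed between -5.60 and -3.64 and Jun between -3.07 and -1.83. Over 23 tested genes 21 were below 0 (46.0% of all genes), with a median of -0.28. Of the 23, 18 were undetermined, while 91.2% of all genes were additive. Without library 1 of doxycycline that median was -0.02. What differed between these libraries was not tested.

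In the pathways of the 2 targets the share of additive genes was near the 91.2% of all genes. Of 21 tested genes of the TLR9 pathway, 20 were additive within 1.5-fold and 10 were called higher with both agents (9.13% of all genes). Unc93b1, which carries TLR9 to endosomes, measured 2.41, 2.71 and 2.76 RPKM with PBS, 6.00, 5.94 and 5.86 with CpG1668, 4.01, 4.78 and 4.52 with doxycycline and 8.71, 7.50 and 10.9 with both. Its interaction was -0.06 (-0.37 to 0.25). Cnpy3, a chaperone of Toll-like receptors, had one of the 3 largest t in the list, with 0.17 (0.03 to 0.30, adjusted p = 0.651). Tlr9 itself was below the level for testing, at 0.0616 to 0.170 RPKM with PBS, 0.287 to 0.358 with CpG1668, 0.173 to 0.236 with doxycycline and 0.356 to 0.511 with both.

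Of 23 tested genes of the STAT3 pathway and its targets, 20 were additive (91.2% of all genes). With both agents 10 were called higher (9.13% of all genes) and 3 lower (6.40%). Socs3, the feedback inhibitor induced by STAT3, measured 0.455, 0.734 and 0.551 RPKM with PBS, 1.12, 1.22 and 1.78 with CpG1668, 1.72, 0.863 and 1.39 with doxycycline and 2.60, 3.01 and 2.33 with both. Only the libraries with both agents stood apart from the other treated ones. The interaction of Socs3 was 0.08 (-0.36 to 0.53). Bcl2l1, an anti-apoptotic target, measured 16.8 to 18.8 RPKM with PBS, 12.6 to 15.1 with CpG1668, 11.1 to 13.3 with doxycycline and 11.1 to 11.5 with both, with 0.25 (0.03 to 0.47, adjusted p = 0.723). Of 17 tested NF-kappaB targets, 12 were additive (91.2% of all genes). With both agents 7 of them were called higher (9.13% of all genes) and none lower (6.40%).

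In several lists every tested gene was additive within 1.5-fold, beside 91.2% of all genes. These lists responded little. Their median combined change on log2 ran from -0.11 (stem and leukaemia genes) to 0.11 (hypoxia and glycolysis genes), well inside that bound. All 24 tested DNA methylation and histone modifying enzymes were additive within 1.5-fold. Kmt2d, a histone methyltransferase, had one of the larger values, at -0.25 (-0.48 to -0.02), and Asxl1, a Polycomb partner, 0.15 (0.02 to 0.29). All 22 replication genes, 20 mitosis genes, 19 sterol synthesis genes, 19 hypoxia and glycolysis genes and 12 stem and leukaemia genes were additive too. Pcna, the sliding clamp of replication, had 0.06 (-0.06 to 0.18). Cbfb, the gene broken by inv(16), had 0.00 (-0.15 to 0.14) around 28.9 to 33.1 RPKM in all libraries; a count over the whole gene does not separate the fusion from the normal allele.

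Of 23 tested lysosomal genes, 15 were called higher with both agents (9.13% of all genes). CpG1668 averaged over doxycycline raised 9 (4.82%), and doxycycline averaged over CpG1668 raised 10 (7.69%). All 23 were additive, beside 91.2% of all genes. Lamp1, a lysosomal membrane protein, measured 50.8 to 53.0 RPKM with PBS, 53.3 to 56.1 with CpG1668, 51.8 to 57.9 with doxycycline and 62.7 to 65.5 with both, with 0.13 (0.00 to 0.26). Asah1, the acid ceramidase, measured 4.63 to 4.89 RPKM with PBS and 6.51 to 6.64 with both, with 0.13 (0.01 to 0.25). The plot by gene list sets these narrow lists beside the wide ones of granulocyte and stress genes.

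**Figure D5:**
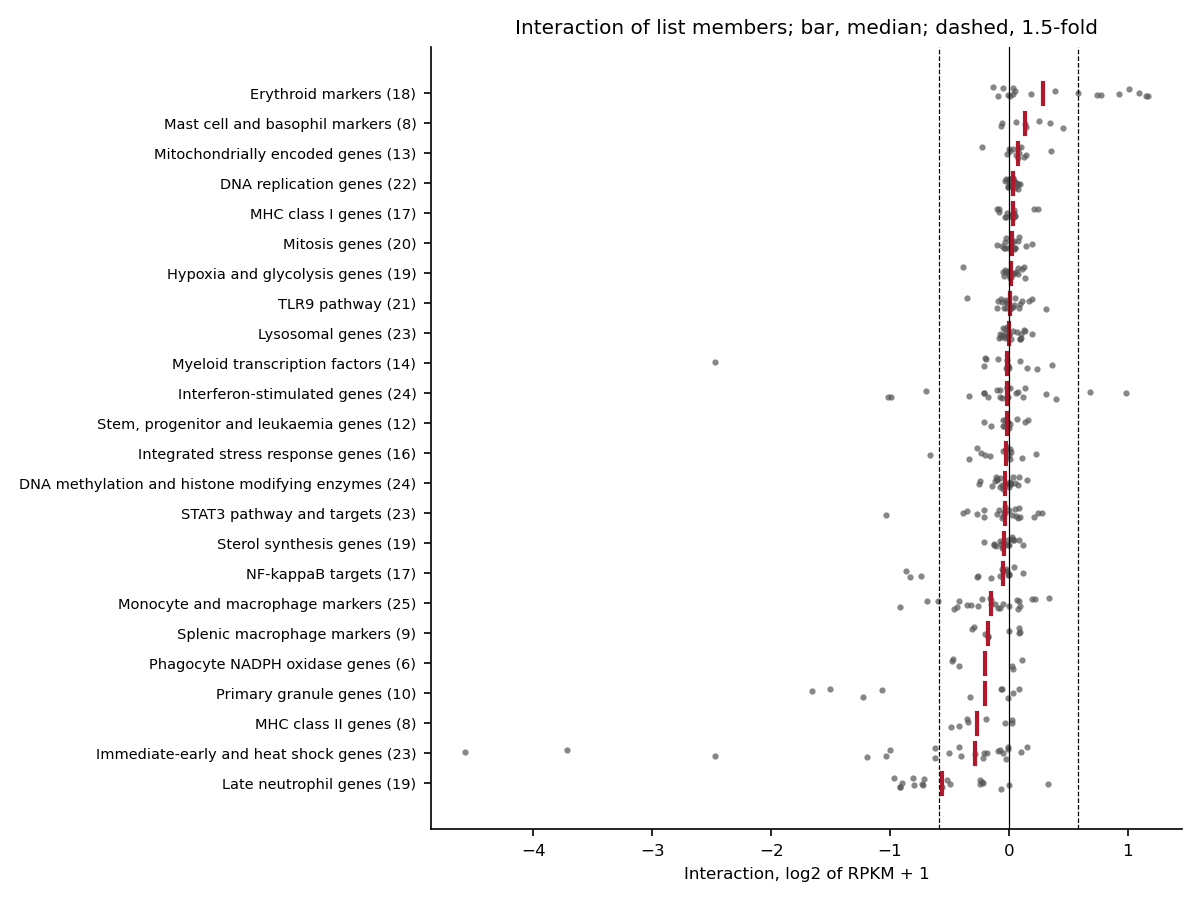
Log2 interaction of each tested gene (points) in each gene list, with the list median. Late neutrophil genes have a median of -0.56 and erythroid genes of 0.29, while DNA replication, mitosis, sterol synthesis and lysosomal genes stay inside the 1.5-fold bound.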

How the data were processed

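RNA was sequenced from 12 libraries, 3 in each of 4 groups taken from the labels. The authors deposited RPKM values per gene, 1 file per library; STAR 2.7.9, Partek 7.18.0723 and the build mm10 are named in the submitters' processing notes. Low RPKM values were only partly on whole-read steps (72.2 to 73.5% within 0.05 of a whole read), so depth is an estimate and no count test was run. Symbols were matched to GENCODE M21 (GRCm38), 32391 of 33531 (96.6%). One limma 3.58.1 model (R 4.3.3) with 4 group means (8 residual degrees of freedom) and an intensity trend was fitted to log2(RPKM + 1), and another to plain RPKM, over genes whose 12 libraries averaged 1 RPKM or more. P-values were Benjamini-Hochberg adjusted over all 12167 genes, and the threshold was 0.05. On plain RPKM the spread grows with the level, so the tests there are less exact. The median SD of log2 values was 0.0632 with PBS, 0.0634 with CpG1668, 0.0637 with doxycycline and 0.0589 with both. Scripts were tested on simulated data.

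Genes were named by role, by smallest interaction p in each direction (3 where fewer were called), by largest t in each list (up to 3), and by largest additive change (4 in each direction). The choices by p and by additive change took genes with a mean of at least 5 RPKM in the highest group, without predicted gene models. Alas2, Isg15, Rsad2, Gm33370, Mcpt1 and the genes of the sensitivity text were named after their values were seen. The comparisons, members and gene lists were chosen with earlier results of these data known. Alternatives were another pseudocount, 2 scalings, other filters, no trend, a robust prior, a replicate block, other bounds, a square-root scale, products of plain folds (added after seeing the data) and leaving out each library. No 2 files were identical. The values of 1 gene are not reported here.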

Additional observations from a re-analysis of the deposited data

How the results depend on the processing

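The interaction gave 0 calls on both scales with a pseudocount of 0.1 (log2 scale), with both scalings, with a minimum of 5 RPKM, without the trend and with a robust prior. With no filter on low values it gave 3 more and 9 less than additive on log2 and 3 and 9 on RPKM, and 2 sign changes for each agent; without the trend there was 1 sign change for doxycycline. Leaving out each library gave 0 to 1 genes less than additive on each scale: Gm47295 without library 1 of CpG1668 and Gm5586 without library 1 of CpG1668 plus doxycycline. Sign changes then ran from 0 to 1 for doxycycline and 0 to 2 for CpG1668.

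Counts of responding genes moved more. With no filter, both agents raised 1856 and CpG1668 1081. With at least 5 RPKM, 1155 genes were called with both agents (599 higher), 1038 of them additive, and the averaged effects raised 285 (CpG1668) and 525 (doxycycline). Quantile normalization gave 1356 lower with both and 659 lower with doxycycline. Over single libraries left out, genes lower with both ran from 516 (without library 2 of PBS) to 815, genes lower with CpG1668 from 350 (without library 2 of CpG1668 plus doxycycline; 380 without library 2 of PBS) to 501, and genes lower with doxycycline from 213 (without library 2 of CpG1668; 215 without library 2 of doxycycline, 231 without library 1 of CpG1668) to 435. The cause of these shifts was not tested, beyond the fewer or more genes that the filters admit. The share of responding genes additive within 1.5-fold ran from 77.1% with a pseudocount of 0.1 to 89.9%.

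Replicate numbers did not pair the samples: over 18 same-numbered pairs the correlation of deviations ran from -0.207 to 0.268, and 2 were over 0.1. With the replicate block the interaction called 0 genes on each scale, and both agents 1584 (947 higher, 637 lower), 1326 of them additive.

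Of the 109 named genes with values, 0 were called in any alternative (lowest adjusted p 0.0984), and their sign changed in 40 of 2151 fits on log2 and 28 of 2042 on RPKM. Depth limits genes near 0.0856 to 0.0985 RPKM, and 3 libraries a group limit large responders, whose intervals were widest.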

Other observations

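Of 8 tested basophil and mast cell genes, 6 had an interaction above 0 on log2 (54.0% of all genes) and 6 on RPKM (55.4%). None had an unadjusted limma p under 0.05 on log2. Prss34, a basophil protease, measured 0.552, 0.537 and 0.187 RPKM with PBS, 0.500, 0.974 and 1.31 with CpG1668, 0.718, 1.13 and 2.34 with doxycycline and 2.89, 3.34 and 3.52 with both. The libraries with both agents lay above all others. Its interaction was 0.46 on log2 (-0.23 to 1.15) and 1.35 RPKM (0.173 to 2.53). Mcpt8, another basophil protease, measured 0.215 to 0.469 RPKM with PBS, 0.579 to 1.26 with CpG1668, 0.658 to 1.59 with doxycycline and 2.17 to 2.84 with both, with 0.35 (-0.18 to 0.88). Neither passed (limma adjusted p = 0.873 and 0.874). The median log2 interaction of the 8 genes was 0.14, and it ran from 0.01 to 0.25 over the libraries left out in turn. Of the 8, 5 were additive (91.2% of all genes). Mcpt1, a mast cell protease outside the list, had -0.41.

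Klf2, a transcription factor of quiescent and resting cells, had a similar shape, at 0.878 to 1.42 RPKM with PBS, 1.18 to 1.95 with CpG1668, 1.94 to 2.52 with doxycycline and 3.27 to 4.56 with both. Its interaction was 0.37 (-0.06 to 0.79, adjusted p = 0.826). Ighm, the immunoglobulin mu chain, measured 0.438 to 0.496 RPKM with PBS, 2.88 to 3.46 with CpG1668, 1.66 to 2.37 with doxycycline and 5.62 to 8.63 with both, with -0.19 (-0.60 to 0.22). The observed 6.64 RPKM of Ighm lay above a sum of 4.74 and below a product of 7.58 with RPKM + 1 and of 13.9 with plain folds. With 0.1 added in place of 1 the log2 value of Ighm was -0.89, and after quantile normalization 0.06.

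Among mitochondrially encoded genes mt-Nd1, a subunit of complex I, had lower values in all treated libraries than with PBS. It measured 2954, 3085 and 3362 RPKM with PBS, 2551, 2335 and 2256 with CpG1668, 2648, 2416 and 2380 with doxycycline and 2337, 2420 and 2491 with both. Its log2 interaction was 0.36 (0.16 to 0.56, adjusted p = 0.498). In the alternatives that kept all libraries it was as low as 0.14 on log2, and 252 RPKM against 687 in the main fit. Another complex I subunit, mt-Nd6, measured 139 to 152 RPKM with PBS and 141 to 157 with both, with -0.22 (-0.38 to -0.06). Of 13 tested mitochondrially encoded genes, 12 were additive (91.2% of all genes), and the median log2 interaction was 0.07.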
